A study of Mus musculus with 2 samples.

Results

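Immediate early genes are the genes that a cell transcribes first after a stimulus, from factors already present and without new protein synthesis. The 10 genes described here (Fos, Fosb, Jun, Junb, Atf3, Egr1, Egr2, Nr4a1, Ier2 and Dusp1) were taken by name from a list, not by a threshold on their values. All 10 were found among the 23157 genes of the deposited table, where they are represented by 24 of 64053 transcripts. The table holds RNA-seq of E12.5 mouse distal forelimbs, the tissue of the presumptive digits, with 1 wild-type library and 1 library of embryos homozygous for the HoxD Inv(TpSB1-Itga6) allele, in which 2.4 Mb of chromosome 2 next to the HoxD cluster is inverted. The label gives the strain C57Bl6CBAF1 for both, the series' notes give 3 pairs of forelimbs as the dissected tissue, and the labels name no agent. With 1 library per genotype nothing below has a replicate check, no test between genotypes was possible, and each interval covers counting error only.

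In the textbook scheme, growth factors, cyclic AMP, calcium or stress act through MAP kinases on factors already sitting at the promoter, SRF with its ETS partners (Elk) and CREB among them. Fos, Fosb, Jun, Junb and Atf3 encode leucine zipper proteins that pair into AP-1 and related dimers. Egr1 and Egr2 encode zinc finger factors, Nr4a1 an orphan nuclear receptor, Ier2 a small nuclear protein and Dusp1 a phosphatase that switches the kinases off again. The messages are short-lived, and these genes also respond to the handling of tissue. In the limb bud, FGF signals from the apical ridge act through the same kinases.

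The libraries held 9280660 reads (wild type) and 9466154 reads (inversion). A normalized read is a read divided by a size factor of its library, and 16756 genes averaged 10 or more of them over both libraries. Markers of limb mesenchyme were present in both, 7 of 7 above that mean, among them Hoxd13 with 2264 and 1522 reads. The libraries also differed in Xist (2607 reads against 13) and in the sum of 4 Y-linked genes (826 against 2820). Embryo sex and genotype cannot be told apart in any value below. Nor can fewer cells of a type be told apart from less RNA per cell in these bulk samples.

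None of the 10 genes lies on chromosome 2. They are spread over 9 chromosomes, and on chromosome 8 Ier2 and Junb lie 314 kb from each other. Positions and lengths are those of GENCODE M21 on GRCm38, not of the NCBIM37 build used for mapping, for the protein-coding transcript with the most reads. The genes are compact. Their transcripts spanned 1.52 kb (Ier2) to 13.0 kb (Atf3), with a median of 3.85 kb, whereas the median was 22039 bp over the 13885 genes that passed the mean of 10 and had a coding transcript in GENCODE M21. All 10 were below that median. Jun, Junb and Ier2 consist of a single exon, as do 2.85% of those genes, and the median number of exons was 3 for the 10 genes and 9 for all. Their 3′ untranslated parts had a median length of 1000.5 nt against 1019 nt. The AU-rich pentamer ATTTA, a letter pattern known from unstable messages, occurred there at a median of 2.89 per kb against 1.24 per kb. The longer form TATTTAT, which contains the pentamer, was present in 5 of the 10 (Fos, Fosb, Jun, Atf3 and Dusp1) and in 28.3% of 13623 genes with such a part.

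RefSeq promoter windows (250 bases before to 50 after the start, GRCm38.p6) were at hand for 8 of the 10 genes. The pentamer TGACG, read on both strands and known as the core of the cyclic AMP response element, was found in 7 of these 8 genes (Fos, Fosb, Junb, Egr2, Atf3, Dusp1 and Nr4a1) and in 6228 of 27025 genes. The full palindrome TGACGTCA, which contains the pentamer on either strand, was found in Dusp1 alone of the 8 and in 2.03% of all genes. The wider form TGACNTCA was found in Jun and Dusp1 and in 2708 of all genes. The CArG box, the site bound by SRF, was found in Egr2 and in 1.81% of all genes, and the AP-1 site TGANTCA in none of the 8 and in 8.97% of all. Egr2 has 5 windows and the other 7 have 1 each, and a gene was counted when any window matched. A match describes letters and not a bound site.

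4 promoters are shown, those of the founding AP-1 pair and of Dusp1 and Nr4a1, because they hold the pentamer at different positions or, in Jun, only its relative. Capitals mark TGACG (or CGTCA on the other strand) and TGACNTCA, and each run ends before the first annotated exon. Those of Fos (chr12:85473690-85473889, plus strand), Jun (chr4:95052223-95052422, minus strand), Dusp1 (chr17:26508520-26508672, minus strand) and Nr4a1 (chr15:101266646-101266845, plus strand) read as follows.
Fos: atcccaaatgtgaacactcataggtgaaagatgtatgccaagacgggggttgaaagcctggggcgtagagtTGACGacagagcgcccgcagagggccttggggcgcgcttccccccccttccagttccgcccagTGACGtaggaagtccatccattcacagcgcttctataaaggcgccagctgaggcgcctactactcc
Jun: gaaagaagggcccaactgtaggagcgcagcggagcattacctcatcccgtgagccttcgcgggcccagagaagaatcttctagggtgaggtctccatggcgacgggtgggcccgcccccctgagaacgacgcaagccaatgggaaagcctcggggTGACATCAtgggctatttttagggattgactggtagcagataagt
Dusp1: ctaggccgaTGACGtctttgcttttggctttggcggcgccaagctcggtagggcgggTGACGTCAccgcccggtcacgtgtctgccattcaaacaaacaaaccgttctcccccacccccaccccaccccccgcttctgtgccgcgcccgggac
Nr4a1: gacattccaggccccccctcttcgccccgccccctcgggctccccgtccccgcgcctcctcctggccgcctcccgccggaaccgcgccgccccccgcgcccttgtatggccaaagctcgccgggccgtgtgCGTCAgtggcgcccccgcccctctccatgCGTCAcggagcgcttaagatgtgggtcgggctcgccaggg
Counted backwards from the base before the RefSeq start as -1, the pentamers within the runs shown begin at -129 and -66 in Fos, at -191, -143 and -140 in Dusp1 and at -69 and -40 in Nr4a1. The match of Jun begins at -45. In Dusp1 those at -143 and -140 are both arms of the palindrome. The Dusp1 run shown has 153 bases, because the 47 bases before the RefSeq start are annotated as exon and left out.

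Compared per transcript length, the 10 genes differed widely in level, and the order of the groups named below was shared by both libraries. In wild type, Ier2 had 344 normalized reads per kb and Jun 306, Dusp1 154 and Nr4a1 65.4. Fos (40.0), Atf3 (38.9), Junb (36.4) and Egr1 (28.0 normalized reads per kb) formed a group in which the Poisson interval of each overlapped that of its neighbour. Fosb (0.803) and Egr2 (0.721 normalized reads per kb) were far below. Ier2 and Jun also had overlapping intervals, whereas Jun and Dusp1, Dusp1 and Nr4a1, Nr4a1 and Fos, and Egr1 and Fosb did not. The level of Egr1 sums 2 transcripts with equal reads in each library. If the same reads were counted on both, its level is overstated in both libraries. Its place beside Fos, Atf3 and Junb is therefore not settled in either library.

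In the inversion library, Jun came first with 330 normalized reads per kb and Ier2 next with 294. They were followed by Dusp1 (150), Nr4a1 (80.1), Junb (36.6), Egr1 (32.7), Atf3 (32.2), Fos (25.4), Egr2 (14.1) and Fosb (2.35 normalized reads per kb). Against all genes that passed the mean of 10 and had a length, the level of Ier2 in wild type was above 74.2% and that of Jun above 69.8%, and Dusp1 above 46.9%. Only Ier2 and Jun were above the median level of these genes. Together these 2 held 67.0% of the normalized reads of the 10 genes in wild type and 65.7% in the inversion. The 10 genes summed to 2240 (wild type) and 2280 (inversion) normalized reads. In that library the intervals of Fos and Egr2 overlapped (lower bound 17.9 and upper bound 21.7 normalized reads per kb), and those of Egr2 and Fosb did not. The value of 14.1 for Egr2 and its interval rest partly on short transcript models, by whose own lengths their reads were divided. The models of 427, 773 and 902 nt had 2 reads each in the inversion, possibly the same reads. Both the overlap of Egr2 with Fos and its separation from Fosb depend on that division.

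**Figure D1:**
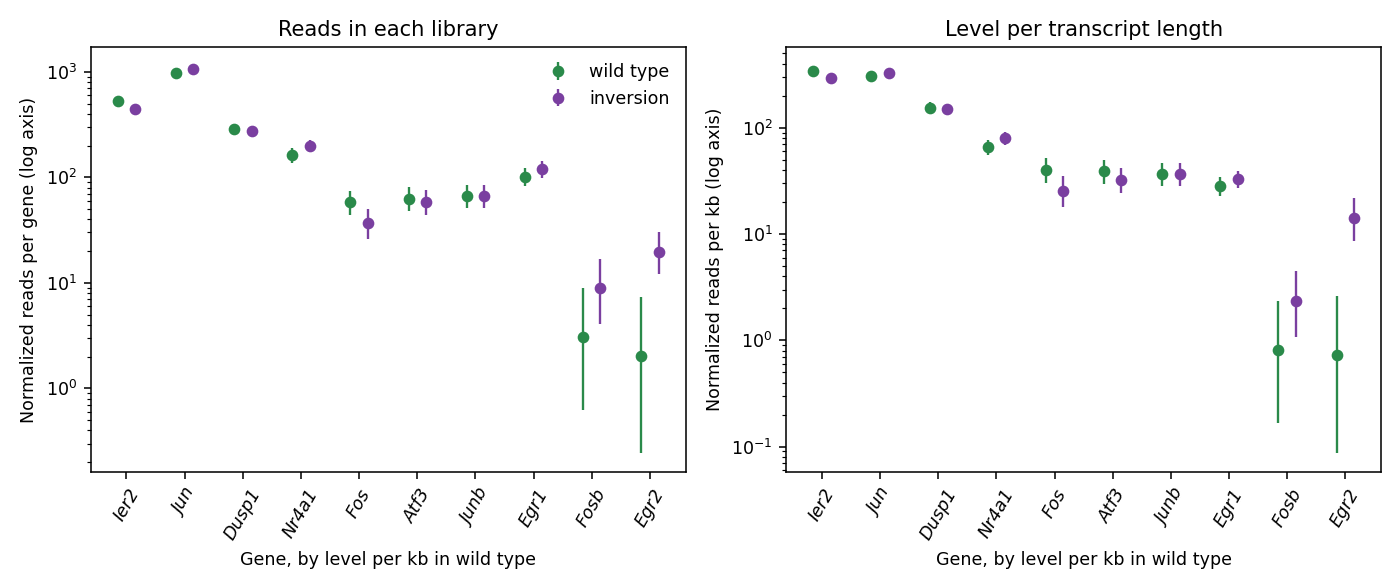
Normalized reads per gene (left) and per kb of transcript (right) on log axes for the 10 genes, ordered by level per kb in wild type, with 1 point per library (green, wild type, and purple, inversion) and exact 95% Poisson intervals of counting error as bars. The bars of both libraries are apart in Egr2 and overlap in the other 9, and bars were apart in 17.6% of all 16756 genes. Ier2 and Jun are highest, and the 2 lowest genes, Fosb and Egr2, have 2 to 20 reads in a library.

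Most of these genes differed little between the libraries. Of the 10, 9 averaged 10 or more normalized reads, the exception being Fosb, and Egr2 passed only through the library in which it was high. Of the 9, 1 was 2-fold or more up in the inverted library (Egr2), as were 3.99% of all 16756 genes, and 0 were 2-fold or more down, as were 0.483% of all genes. The median log2 ratio of inversion over wild type (pseudocount of 1) was 0.01 for the 9 genes and -0.02 for all genes. The median size of the log2 ratio regardless of sign was 0.22 for the 9 and 0.14 for all. Within 1.5-fold in either direction lay 7 of the 9 and 88.6% of all genes. Among those averaging 100 or more normalized reads (Jun, Egr1, Ier2, Dusp1 and Nr4a1), 0 were past 2-fold, where 1.17% of the 11831 genes at that level were up and 0.101% down.

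Jun (ENSMUSG00000052684, chr4:95049034-95052222, 1 exon), the AP-1 subunit with the most reads, had 964 reads without and 1065 with the inversion, or 976 and 1052 normalized reads. The log2 ratio was 0.11 with a 95% interval of -0.02 to 0.23, so that a difference was not detectable at this depth. Its relative Junb (ENSMUSG00000052837, chr8:84976910-84978718, 1 exon) had 65 and 67 reads and a log2 ratio of 0.01 (95% interval -0.51 to 0.52). Both Jun genes had intervals that include 0, and the sign for Junb turned under upper quartile scaling (-0.01).

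Fos (ENSMUSG00000021250, chr12:85473890-85477273, 4 exons), the partner of Jun in the classical AP-1 dimer, had 57 wild-type reads and 37 from the inversion, or 57.7 and 36.5 normalized reads. It was the lowest of the 9 genes in log2 ratio, at -0.65 with a 95% interval of -1.30 to -0.04. The Poisson intervals of its 2 levels overlapped. Fosb (ENSMUSG00000003545, chr7:19302696-19310051, 4 exons) had 3 and 9 reads (ratio 2.93, 95% interval 0.730 to 16.8), which leaves its direction undetermined. Atf3 (ENSMUSG00000026628, chr1:191170296-191183340, 4 exons), a stress-induced relative of AP-1, had 62 and 59 reads and a log2 ratio of -0.11 (95% interval -0.65 to 0.43). Of the 5 leucine zipper genes, Fos was the one whose interval left out 0.

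Egr1 (ENSMUSG00000038418, chr18:34859823-34864984, 2 exons) had 100 and 120 reads, summed over 2 transcripts with equal reads, and a log2 ratio of 0.22 (95% interval -0.17 to 0.62). Egr2 (ENSMUSG00000037868, chr10:67537869-67542188, 2 exons), best known for its part in the hindbrain and in myelinating Schwann cells, had 2 wild-type reads and 20 from the inversion, or 2.03 and 19.8 normalized reads. The ratio was 9.75 with a 95% interval of 2.37 to 86.1. The Poisson intervals of the 2 levels did not overlap (0.245 to 7.32 and 12.1 to 30.5 normalized reads). Among the 1416 genes with a mean of 10 to 20 normalized reads, 16.3% were up 2-fold or more in the same direction. The log2 ratio of 2.78 became 1.82 with a pseudocount of 5 and 3.22 with one of 0.1. The reads of Egr2 lie on 7 transcript models. None of these had more than 7 reads in a library, and 3 had the same value in each library (0 and 2 reads). The intervals above take all reads as separate. The most counted model, ENSMUST00000169930, which GENCODE M21 does not list, had 1 and 7 reads. Its log2 ratio had a 95% interval of -0.19 to 8.27, which includes 0, as did the interval of every other model. With models of equal reads counted once, a setting chosen after seeing the data, the log2 ratio of Egr2 was 2.47. Its mean then falls below 10 normalized reads, so that Egr2 misses the minimum.

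Beside Egr2, markers of cell types in the tissue were read. Of Schwann cell and neural crest markers, Sox10, the lineage factor, had 162 and 172 reads (log2 ratio 0.05, 95% interval -0.27 to 0.37) and Foxd3, a neural crest factor, 10 and 21 (0.97, 95% interval -0.12 to 2.28). Neither was at 0 in a library, and their summed level was 174 (wild type) and 191 (inversion) normalized reads. The 5 muscle markers had 660 and 1030 normalized reads in all, and 4 of them had a log2 ratio above 0, as had 7810 of all 16756 genes. Actc1 had 328 and 547 reads and Myog 155 and 268. Pax7 was past 2-fold with 7 and 36 reads, whereas Pax3 was lower with 26 and 20 (log2 ratio -0.40). The interval of Myod1 (136 and 172 reads) included 0, at -0.03 to 0.64. Whether Schwann or muscle cells took part in the value of Egr2 was not tested. Markers of endothelium, macrophages, surface ectoderm and red cells had medians of -0.08, -0.12, -0.23 and -0.23, with 5 of 5 genes of each list above the mean of 10 and none at 0.

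Nr4a1 (ENSMUSG00000023034, chr15:101266846-101274795, 7 exons) had 160 and 201 reads, or 162 and 199 normalized reads, the second highest log2 ratio of the 9 genes at 0.29 (95% interval -0.01 to 0.60). Ier2 (ENSMUSG00000053560, chr8:84661331-84662852, 1 exon) had 517 wild-type reads and 453 from the inversion, or 524 and 447 normalized reads, a ratio of 0.855 (95% interval 0.752 to 0.971). This is a small difference on many reads, and its log2 ratio was -0.23. Dusp1 (ENSMUSG00000024190, chr17:26505590-26508519, 4 exons), the feedback phosphatase, had 282 and 278 reads and a log2 ratio of -0.06 (95% interval -0.30 to 0.19). The counting interval left out a ratio of 1 on the upper side for 1 of the 9 genes (Egr2) and on the lower side for 2 (Fos and Ier2). Among all genes these shares were 16.7% and 13.0%.

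**Figure D2:**
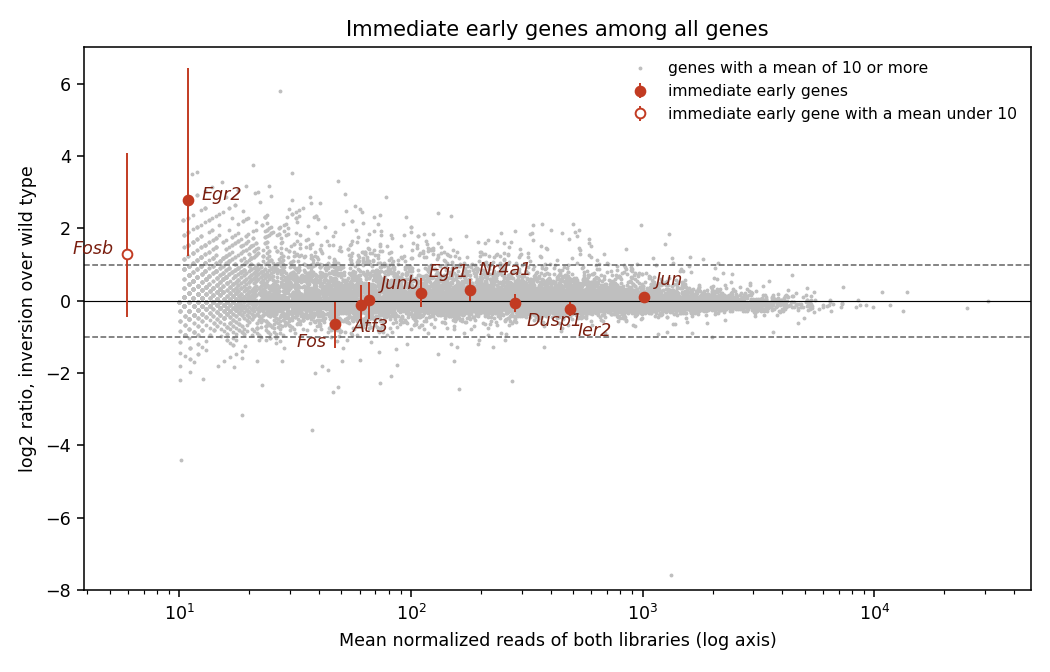
log2 ratio of inversion over wild type (pseudocount of 1) against the mean normalized reads of both libraries (log axis) for the 16756 genes averaging 10 or more (grey) and for the 10 immediate early genes (red, with 95% counting intervals; open for Fosb, below that mean). Dashed lines mark 2-fold. Only Egr2 of the filled red points lies beyond them, at the low end of the axis, and the other 8 lie between -0.65 and 0.29.

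The reads of 6 of the 10 genes were spread over several transcripts. Fosb, Junb, Ier2 and Nr4a1 have 1 transcript each in the table. Of Jun, the coding transcript ENSMUST00000107094 held 677 of 964 wild-type reads (70.2%) and 727 of 1065 from the inversion (68.3%), and ENSMUST00000058555, which GENCODE M21 does not list, the rest. Their log2 ratios were 0.07 and 0.20. An antisense gene, Junos, overlaps Jun in GENCODE M21 and has no row of its own in the table.

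Most of the Dusp1 reads were assigned to transcripts annotated with a retained intron. They held 159 of 282 wild-type reads (56.4%, 95% interval 50.4 to 62.3) and 162 of 278 from the inversion (58.3%, 95% interval 52.2 to 64.1), so that both intervals overlapped. The longer of them, ENSMUST00000126178, had 130 and 131 reads, and the coding transcript ENSMUST00000025025 had 123 and 116. Over both libraries, 57.3% of the Dusp1 reads lay on non-coding models, more than in 86.2% of the 6514 protein-coding genes that have models of both kinds. How reads that fit several models were divided is not given in the sources used here.

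The coding transcript of Fos had 42 of 57 wild-type reads (73.7%) and 28 of 37 from the inversion (75.7%), and its log2 ratio alone was -0.60 (95% interval -1.37 to 0.10). The interval of the coding transcript therefore includes 0, unlike that of the gene. Of the 3 processed transcripts of Fos, ENSMUST00000140525 had 10 and 3 reads and ENSMUST00000134311 had 4 and 4. Atf3 had 57 reads on its coding transcript in each library and 5 and 2 on its processed transcript. Egr1 had 50 reads on each of 2 coding transcripts in wild type and 60 on each in the inversion. Whether these are different reads or the same reads counted on both transcripts is not known. Counted once, Egr1 had a log2 ratio of 0.22 with a 95% interval of -0.34 to 0.80, and its mean falls below 100 normalized reads. Such equal pairs were rare. Of 8104 genes with at least 2 transcripts at 20 reads or more in each library, 65 (0.802%) had 2 that were equal in both.

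**Figure D3:**
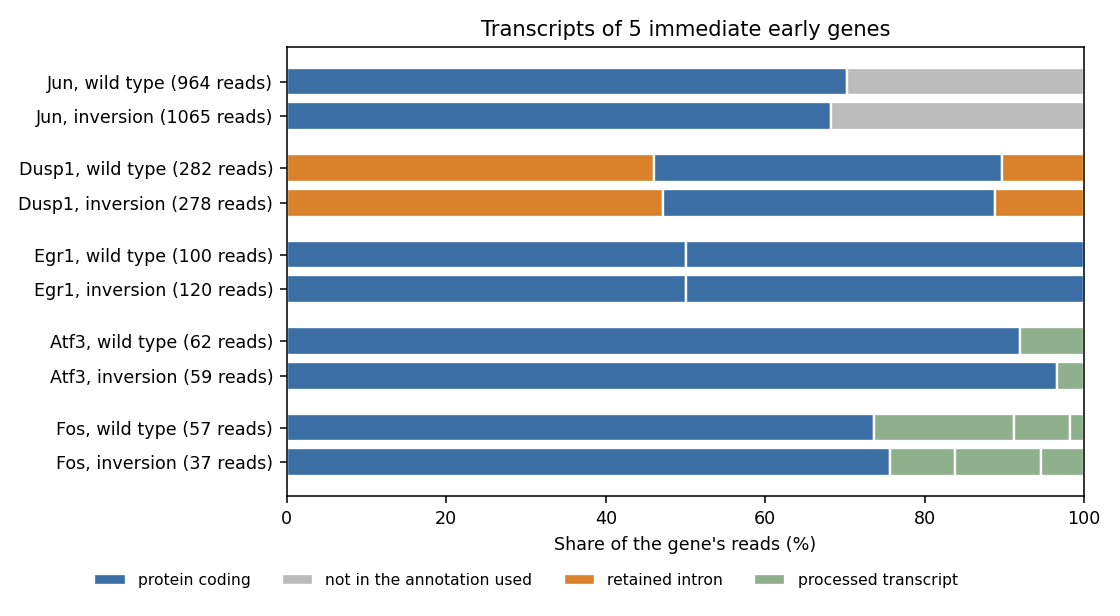
Share of the reads of 5 immediate early genes (horizontal axis, %) held by each of their transcripts in each library, coloured by transcript type in GENCODE M21, with 1 bar per gene and library. Retained-intron models take 56.4% and 58.3% of Dusp1, and the processed transcript ENSMUST00000140525 takes 17.5% and 8.11% of Fos, on 10 and 3 reads.

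Other early response genes and their regulators were counted by list, without a test. Of 9 AP-1 and ATF relatives averaging 10 or more, 1 was down 2-fold or more, namely Batf3, a leucine zipper factor of dendritic and T cells, with 71 and 34 reads (log2 ratio -1.08, 95% interval -1.73 to -0.49). The median of the list was -0.08. Fosl1, at 1 read in each library, was below that mean. Of 18 other early transcription factors and EGR corepressors, 0 were past 2-fold in either direction, with a median of -0.06. Among those averaging 100 or more normalized reads, the highest were Klf4 (0.29) and Klf10 (0.12), Krüppel-like factors, and the lowest Ier5l (-0.21) and Hes1 (-0.18), the latter a Notch target. Ier3, chosen after its values were seen because its log2 ratio was that of Fos (-0.65), had 77 and 50 reads with a 95% interval of -1.20 to -0.13. Egr4 was not analysed here.

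The 14 feedback phosphatases and message decay or growth arrest genes had 0 past 2-fold and a median of -0.02. At a mean of 100 or more, Dusp4, a nuclear MAP kinase phosphatase, was lowest at -0.57 (316 and 218 reads, 95% interval -0.83 to -0.32), followed by Socs3 at -0.27, a cytokine feedback inhibitor. Errfi1, an inhibitor of the EGF receptor, was highest at 0.14, followed by Zfp36l1 at 0.09, which destabilizes AU-rich messages. Of 13 early matrix, stress and signalling genes, 0 were past 2-fold, with a median of -0.03. At a mean of 100 or more, Ctgf, a matrix protein gene, was highest at 0.45 (253 and 355 reads), followed by Gadd45b at 0.17, and Trib1 (-0.36) and Plk2 (-0.33) were lowest.

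The 15 upstream factors and kinases ranged from -0.09 (Rps6ka1, followed by Map2k1 at -0.08) to 0.10 (Mapk9, followed by Mapk8 at 0.09), with 0 past 2-fold. Srf had 821 and 816 reads and Creb1 1923 and 1874. Of 10 heat shock genes, 1 was up 2-fold or more, Hspa8, a constitutive chaperone, with 119 and 248 reads (log2 ratio 1.02, 95% interval 0.70 to 1.35). Hspa8 has near-identical copies in the genome, so its reads are uncertain. The median of the heat shock list was 0.05.

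**Figure D4:**
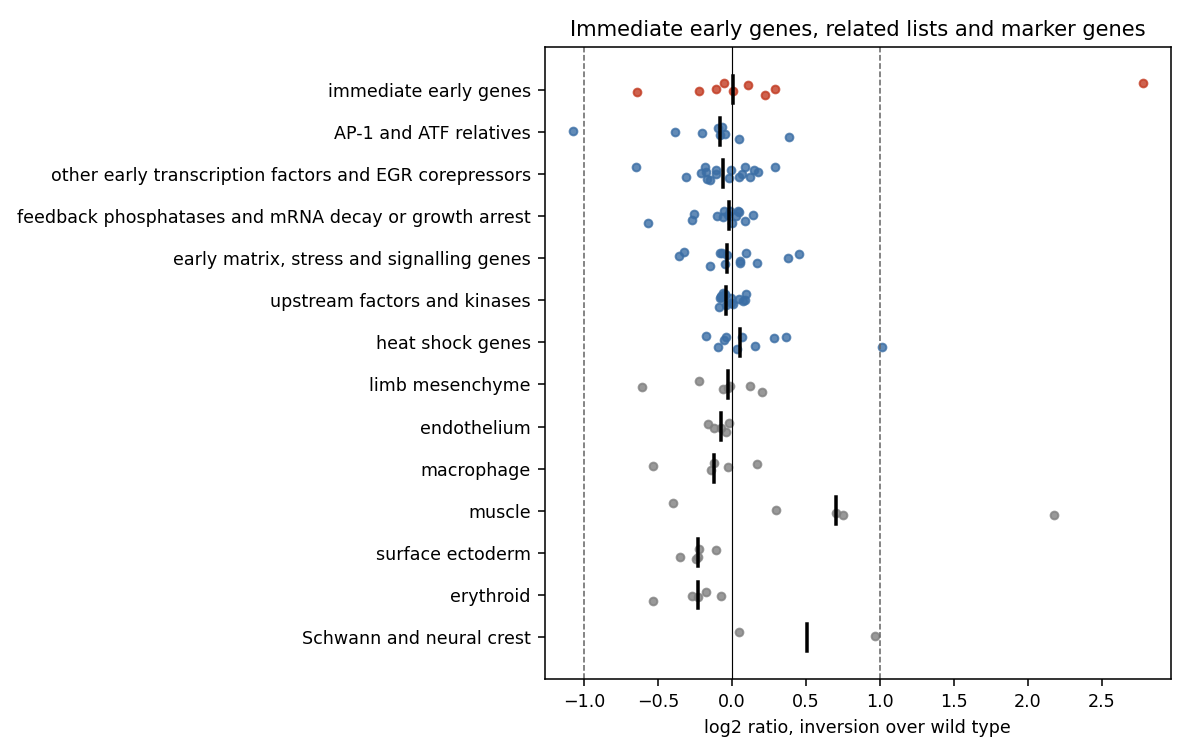
log2 ratio of inversion over wild type (horizontal axis, pseudocount of 1) for single genes averaging 10 or more in the immediate early genes (red), 6 related lists (blue) and 7 lists of cell type markers (grey), with list medians as black bars and 2-fold as dashed lines. Medians of the immediate early genes and the 6 related lists lie between -0.08 and 0.05, and the muscle list lies to the right at 0.70. The Schwann cell list holds only 2 genes, Sox10 at 0.05 and Foxd3 at 0.97, with a median of 0.51.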

How the data were processed

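Poly(A)-selected, stranded RNA-seq of E12.5 distal forelimbs was read from 1 table of the series. The wild-type sample is titled wtFL, whereas its column name, wtDFL, adds D for distal. The column was matched to it as the only wild-type sample of the series. The authors mapped 100-nt reads to NCBIM37, per the labels with Bowtie2, and counted them per transcript with HTSstation. Each deposited signal value is the reads of a transcript after division by the size factor of its library. Further deposited columns, the authors' own comparison (a fold change ratio, its log2 value and p-values), were not used. Whether assignment used the strand is not given in the sources used here.

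Whole reads were recovered from 100% of values above 0.5 (within 0.1 of a read). The value 0.5 stands for no reads. Transcripts were summed by symbol and chromosome. The log2 ratio used the deposited scaling, a pseudocount of 1 and a mean of at least 10. It understates changes of genes with few reads. Intervals are 95% exact Clopper-Pearson (ratios, shares) or Poisson (levels) and cover counting error of these libraries only. Their bounds carry no pseudocount. Level per kb divides each transcript by its GENCODE M21 length (88.1% of transcripts matched, 22 of the 24 here), and unmatched ones by the main transcript's length. Named were the 10 genes and a part of their transcripts with at least 5% of reads. Of each related list, the genes past 2-fold were named, or else the 2 highest and 2 lowest with a mean of at least 100. Srf and Creb1, Fosl1 and the cell type markers were named in addition, after their values were seen. Egr4, which has no value here, was also named. Members and lists were chosen with earlier results of these data known. Some genes of the lists are not reported here and enter no list value. The steps were tested on simulated data. Calculations ran in scipy 1.17.1, pandas 2.3.3 and numpy 2.4.6 under Python 3.11.15, and plots in matplotlib 3.10.9.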

Additional observations from a re-analysis of the deposited data

How the results depend on the processing

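No paired analysis was possible because each genotype is held by a single library. Of 62 values for the 10 genes under an alternative, 62 stayed inside their counting interval and 1 changed sign (Junb, -0.01 under upper quartile scaling). The settings reuse the same reads and some intervals are wide, so staying inside says little about reliability. For Fosb, Junb, Ier2 and Nr4a1, with 1 transcript each, the settings that select transcripts return the main value. The median of the members ranged from -0.01 (upper quartile scaling, transcript with the highest mean, coding transcripts only) to 0.11 (minimum mean of 100), so its sign is not fixed. The number of members at least 2-fold higher was 0 with the transcript of highest mean, with coding transcripts only and with a minimum mean of 100, settings under which Egr2 misses the minimum, and 2 without the filter, which adds Fosb. Egr2 also misses the minimum of 10 where models of equal reads are counted once. The number lower was 1 at 1.5-fold (Fos) and 2 where the counting interval leaves out a ratio of 1. Over all genes, against 668 higher and 81 lower, there were 1992 and 1089 without the filter, 139 and 12 with a minimum mean of 100, 1577 and 341 at 1.5-fold, 113 and 13 at 4-fold, 2802 and 2172 by the counting interval, and 412 higher over coding transcripts only. An exact binomial test of recovered reads, adjusted by Benjamini-Hochberg and added after seeing the data, put 2068 genes higher and 1318 lower. Of Fos, Ier2 and Egr2, whose counting intervals left out a ratio of 1, only Egr2 was among them, on few reads. The binomial test compares reads of these 2 libraries and is no test between genotypes. With coding transcripts only, the most counted transcripts of Fos, Jun and Atf3 hold 100% by construction. Depth limits Fosb, Egr2 and, less so, Fos.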
